A study of Sus scrofa with 18 samples.

Results

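The genes described here handle retinoids, the family of vitamin A and its derivatives, in the pig endometrium. They were chosen by name, as all probe sets of the Affymetrix porcine array that the platform annotation assigns to RBP4, RDH11, ALDH1A1, CYP26A1 or RARRES1, and 1 probe set that only the study's own gene table names, DHRS3. This gave 10 probe sets of 6 genes, out of 24123 probe sets in all. The samples were endometrium of Meishan gilts, a prolific Chinese breed, and of Yorkshire gilts, a less prolific breed, on gestational days (GD) 15, 26 and 50, with 3 arrays for each of the 6 groups. All gilts were pregnant, of similar age and untreated, and they were mated to boars of their own breed, so that the breed of the mother and that of the conceptus cannot be told apart. For each array, RNA from 1 attachment site of each of 2 gilts was pooled, and the same 2 gilts gave all 3 pools of their group. The p-values below therefore measure the spread between site pools, which is not the spread between animals.

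Retinol travels in body fluids bound to RBP4, a carrier protein that the pig endometrium and the pig conceptus are both known to secrete. Inside cells, retinol and retinal are converted into each other by dehydrogenases and reductases such as RDH11 and DHRS3, ALDH1A1 oxidizes retinal to retinoic acid, and CYP26A1 inactivates retinoic acid. Retinoic acid acts through nuclear receptors on its target genes, and RARRES1 is named for its induction by a retinoid.

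Values are log2 intensities after GCRMA, which corrects, normalizes and summarizes the probes of a set, and the intensities below are these values on the linear scale. A probe set was tested if its intensity exceeded 100 in at least 6 arrays, which left 9320 probe sets without controls. A gene rose or fell, or was higher or lower in a breed, where the Benjamini-Hochberg adjusted p of limma over these 9320 was under 0.05. Of the 10 probe sets, 8 passed the filter, at least 1 for every gene, and CYP26A1 passed only through its 6 arrays of GD15. The other 2 were not tested, RBP4 Ssc.10930.1.A1_at with no array above 100 and RARRES1 Ssc.10487.1.A1_at with 3. The level of one probe set cannot be set against that of another. In these tissue samples, fewer cells of a type and less RNA per cell cannot be told apart.

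Of the 18 arrays, the 6 of Yorkshire at the later days differed in brightness from the rest. Their hybridization controls, transcripts added in known amount, had mean log2 values of 11.8 to 13.7, against 10.04 to 11.4 on the others, and the medians of their tested probe sets were 7.78 to 8.13 against 8.31 to 8.40. Across all tested probe sets, the median Yorkshire minus Meishan difference was accordingly −0.42 log2 at GD26 and −0.46 at GD50, but −0.02 at GD15. Breed differences of the 6 genes on the later days were therefore also computed after median centring, quantile normalization and cyclic loess of the arrays.

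**Figure D1:**
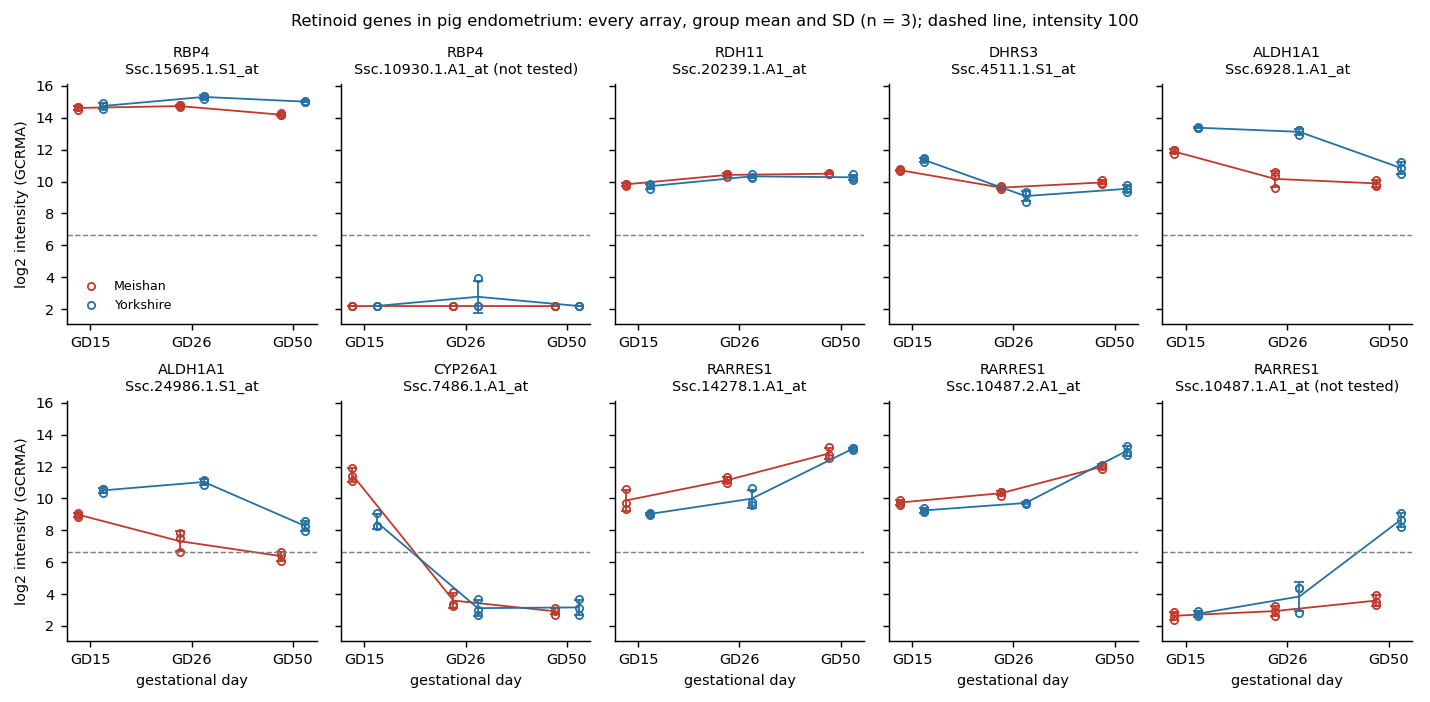
Log2 intensity (y axis) of the 10 probe sets on gestational days 15, 26 and 50 (x axis) in Meishan (red) and Yorkshire (blue). Circles are the 3 arrays of a group, joined points and bars are the group mean and SD, and the dashed line marks an intensity of 100, which CYP26A1 exceeded only at GD15.

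RBP4 (Ssc.15695.1.S1_at), the retinol carrier, was bright on every array and changed little with time in Meishan until GD50. In Meishan the intensities were 26499, 25826 and 23123 at GD15, 25797, 27997 and 27941 at GD26, and 18377, 18113 and 19780 at GD50. In Yorkshire they were 23953, 27697 and 30746 at GD15, 37475, 43057 and 41321 at GD26, and 32638, 32511 and 33875 at GD50. The 3 Yorkshire arrays of GD26 were the highest of the 18, the 3 Meishan arrays of GD50 were the lowest, and the breeds overlapped at GD15 only. From GD15 to GD26, RBP4 rose by 0.57 log2 in Yorkshire (SE 0.10, adjusted p = 0.00229), while the Meishan change was 0.12 (SE 0.06, adjusted p = 0.174). The Yorkshire change exceeded the Meishan change by 0.45 (SE 0.12, adjusted p = 0.0111), a call that quantile normalization ended (0.15, adjusted p = 0.348). From GD26 to GD50, RBP4 fell by 0.54 in Meishan (SE 0.06, adjusted p = 0.00379), and the Yorkshire change was −0.30 (SE 0.10, adjusted p = 0.0912). These changes differed by 0.24 between the breeds (SE 0.12), which did not pass the test (adjusted p = 0.272).

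RDH11 (Ssc.20239.1.A1_at), which reduces retinal to retinol, rose once in each breed, by about the same amount in the values as deposited. Its intensities in Meishan were 934, 855 and 934 at GD15, 1438, 1400 and 1270 at GD26, and 1443, 1471 and 1410 at GD50. Yorkshire had 743, 864 and 921 at GD15, 1404, 1202 and 1256 at GD26, and 1392, 1098 and 1219 at GD50. All 6 arrays of GD15 lay under all 12 later ones, and the later groups overlapped with their neighbours in the order of levels. The rise to GD26 was 0.59 log2 in Meishan (SE 0.06, adjusted p = 0.000349) and 0.61 in Yorkshire (SE 0.12, adjusted p = 0.00408). The difference between these rises was 0.02 with an SE of 0.13 (adjusted p = 0.912), and it was called after cyclic loess (0.30, adjusted p = 0.0475). After median centring, the mean log2 values of GD15 and GD26 were 9.67 and 10.30 in Meishan and 9.56 and 10.56 in Yorkshire. The near equality of the rises thus depends on the scaling. From GD26 to GD50 the changes were 0.08 and −0.06 (adjusted p = 0.410 and 0.764), with a breed difference of −0.14 (SE 0.13, adjusted p = 0.605). No breed difference of RDH11 was called at GD15 (−0.11, adjusted p = 0.577), GD26 (−0.09, adjusted p = 0.441) or GD50 (−0.23, adjusted p = 0.0559). After rescaling the difference at GD26 was 0.02 to 0.26, called after cyclic loess alone (0.21, adjusted p = 0.0359), and that at GD50 was −0.05 to 0.19. The GD50 difference as deposited was called without Yorkshire replicate 1 of GD15, GD26 or GD50 (adjusted p of 0.0384, 0.0485 and 0.0142).

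DHRS3, which also reduces retinal to retinol and is a known target of retinoic acid, was highest at GD15 in both breeds. In Meishan its intensities were 1662, 1645 and 1731 at GD15, 732, 837 and 791 at GD26, and 978, 907 and 1079 at GD50. In Yorkshire they were 2673, 2830 and 2364 at GD15, 418, 599 and 645 at GD26, and 647, 874 and 738 at GD50. The 6 arrays of GD15 stood above the 12 later arrays, with Yorkshire above Meishan. This probe set has its name only from the study's lists of genes that changed in these same samples, so its direction is no independent evidence, here or in the counts below. From GD15 to GD26 DHRS3 changed by −1.10 log2 in Meishan (SE 0.07, adjusted p = 0.000108) and by −2.26 in Yorkshire (SE 0.19, adjusted p = 0.000117). The Yorkshire fall was the larger, with a breed difference of −1.17 (SE 0.21, adjusted p = 0.00119), and it stayed past the test after each rescaling (−0.99 to −0.81, adjusted p of 0.0122 to 0.0460). From GD26 to GD50 DHRS3 rose by 0.33 in Meishan (SE 0.07, adjusted p = 0.0292), and the Yorkshire change of 0.46 (SE 0.19) did not pass the test (adjusted p = 0.160), with a breed difference of 0.13 (SE 0.21, adjusted p = 0.770). The Meishan rise was lost without replicate 2 of GD15, 1 or 3 of GD26, or 1 or 3 of GD50 (adjusted p of 0.0505 to 0.0810).

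ALDH1A1, which makes retinoic acid from retinal, was higher in Yorkshire on all 3 days and fell at a different step in each breed. On its brighter probe set (Ssc.6928.1.A1_at), the Meishan intensities were 3994, 3994 and 3435 at GD15, 766, 1298 and 1524 at GD26, and 850, 889 and 1119 at GD50. The Yorkshire intensities were 10334, 10663 and 10937 at GD15, 7730, 9554 and 9512 at GD26, and 1447, 1852 and 2373 at GD50. Yorkshire thus stayed high until GD26, whereas every Meishan array of GD26 was already far below every Meishan array of GD15. On the dimmer probe set (Ssc.24986.1.S1_at), Meishan had 502, 552 and 464 at GD15, 98.9, 181 and 227 at GD26, and 87.6, 67.1 and 98.7 at GD50. Yorkshire had 1550, 1514 and 1296 at GD15, 1844, 2167 and 2294 at GD26, and 302, 250 and 386 at GD50. On both probe sets the breeds did not overlap on any day, and over the 18 arrays their log2 values correlated at r = 0.974.

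From GD15 to GD26 ALDH1A1 fell in Meishan, with log2 changes of −1.73 (SE 0.26, adjusted p = 0.00216) and −1.66 (SE 0.31, adjusted p = 0.00526) on the brighter and the dimmer probe set. In Yorkshire the brighter probe set changed by −0.26 (SE 0.18, adjusted p = 0.240), while the dimmer rose by 0.53 (SE 0.17, adjusted p = 0.0319), so that the probe sets disagreed in sign. The latter call was lost without any 1 of the 3 Yorkshire arrays of GD15 or without replicate 2 or 3 of GD26 (adjusted p of 0.0570 to 0.0974). The former turned to 0.13 after median centring. From GD26 to GD50 ALDH1A1 fell in Yorkshire, with −2.26 (SE 0.18, adjusted p = 0.000998) and −2.76 (SE 0.17, adjusted p = 0.000448), and the Meishan changes of −0.28 (SE 0.26, adjusted p = 0.512) and −0.94 (SE 0.31, adjusted p = 0.0903) were not called. Without Meishan replicate 1 of GD26 the last of these was called (−1.28, adjusted p = 0.0162). The breed difference of the change was 1.47 (SE 0.32, adjusted p = 0.00407) and 2.19 (SE 0.36, adjusted p = 0.000759) at the earlier step. It was −1.98 (SE 0.32, adjusted p = 0.00469) and −1.83 (SE 0.36, adjusted p = 0.0138) at the later one, and the last value is a fitted one, since the Meishan GD50 arrays of the dimmer probe set were all under 100. All of these breed differences stayed past the test after median centring, quantile normalization and cyclic loess. With Yorkshire GD26 taken from replicate 1 alone, the array of that group nearest to the others in its hybridization controls, they were 1.26 (adjusted p = 0.0503) and 2.01 (adjusted p = 0.0128), then −1.78 (adjusted p = 0.0372) and −1.64 (adjusted p = 0.0692).

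CYP26A1 (Ssc.7486.1.A1_at), an enzyme that clears retinoic acid, was measured above 100 at GD15 alone. Its intensities at GD15 were 3917, 2171 and 2760 in Meishan and 306, 304 and 536 in Yorkshire, so the lowest Meishan array was above the highest Yorkshire one. On the 12 arrays of GD26 and GD50 they ran from 6.55 to 17.2, and no order among these groups can be read. From GD15 to GD26 CYP26A1 fell at least 28.6-fold in Meishan (limma, adjusted p = 1.26e-05) and at least 3.68-fold in Yorkshire (adjusted p = 5.61e-05), with an intensity of 100 in place of the dimmer group. CYP26A1 passed the filter only through GD15, where it was high, so these falls are given as a description. At GD15 the Yorkshire minus Meishan difference was −2.96 log2 (SE 0.34, adjusted p = 0.000128), which is 7.77-fold. This difference was −3.07 to −2.90 after the rescalings and was called under each of them. The fitted breed difference in the fall was 2.48 (SE 0.48, adjusted p = 0.00208) and rests on values under 100.

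Of the genes that the study discusses beside CYP26A1, 2 are given here, and their probe sets were named from its lists of changed genes in these same samples, which makes their direction no independent evidence. TRIM16, a protein that takes part in the retinoic acid response of other cells, fell from GD15 to GD26, with −3.16 log2 in Meishan (SE 0.25, adjusted p = 0.000185) and −2.46 in Yorkshire (SE 0.18, adjusted p = 7.65e-05). It fell further by GD50, 2.40-fold or more in Meishan (adjusted p = 0.00821) and 2.71-fold or more in Yorkshire (adjusted p = 0.00371). ESR1, an estrogen receptor, fell to GD26, with −2.06 (SE 0.13, adjusted p = 8.60e-05) and −2.99 (SE 0.26, adjusted p = 0.000130) on the probe set the study names. It then rose by 0.54 in Meishan (SE 0.13, adjusted p = 0.0364), and the Yorkshire change to GD50 was 0.03 (SE 0.26, adjusted p = 0.956). The probe set that the platform names ESR1 was under 100 on all arrays.

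RARRES1, the retinoid-induced gene, rose at both steps in both breeds. On its brighter probe set (Ssc.14278.1.A1_at) the Meishan intensities were 840, 633 and 1548 at GD15, 2231, 2030 and 2577 at GD26, and 9560, 5840 and 6701 at GD50. The Yorkshire intensities were 508, 538 and 522 at GD15, 1588, 866 and 753 at GD26, and 9280, 8459 and 8998 at GD50. On Ssc.10487.2.A1_at Meishan had 844, 952 and 784, then 1146, 1350 and 1367, then 4399, 4197 and 3666, and Yorkshire had 679, 565 and 585, then 856, 811 and 848, then 10166, 7856 and 6639. Within each breed no array of a day overlapped with one of another day on either probe set. The third probe set, Ssc.10487.1.A1_at, read 546, 397 and 299 in Yorkshire at GD50 and at most 20.6 on all other arrays, so that it was at least 4.02-fold higher there than in Meishan at GD50, with no test.

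The rise of RARRES1 to GD26 was 1.28 log2 (SE 0.35, adjusted p = 0.0226) and 0.58 (SE 0.11, adjusted p = 0.00523) in Meishan on the 2 tested probe sets, and 0.95 (SE 0.26, adjusted p = 0.0170) and 0.46 (SE 0.15, adjusted p = 0.0354) in Yorkshire. These rises did not differ by breed past the test (−0.32 and −0.12, SE 0.44 and 0.19, adjusted p = 0.587 and 0.650), and the sign on Ssc.10487.2.A1_at turned under each rescaling (0.05 to 0.23). The rise from GD26 to GD50 was 1.67 on each in Meishan (adjusted p = 0.0228 and 0.000561) and 3.14 (SE 0.26, adjusted p = 0.00111) and 3.27 in Yorkshire. The Yorkshire excess on the brighter probe set, 1.47 (SE 0.44), missed the threshold (adjusted p = 0.0774) but passed it after median centring (1.53, adjusted p = 0.0376) and without Meishan replicate 3 of GD15 or Yorkshire replicate 1 of GD26 (adjusted p of 0.0346 and 0.0214), and that on Ssc.10487.2.A1_at was 1.60 (adjusted p = 0.000819). On the brighter probe set the Meishan rise to GD26 was lost without replicate 1 or 2 of GD15 or 1 or 3 of GD26 (adjusted p of 0.0587 to 0.0673), and the rise to GD50 without any 1 array of GD26 or replicate 1 or 3 of GD50 (0.0563 to 0.0729). In Yorkshire the rise to GD26 was lost on this probe set without replicate 1 of GD15 (0.0509), and on Ssc.10487.2.A1_at without replicate 2 or 3 of GD15, any 1 array of GD26 or replicate 2 of GD50 (0.0520 to 0.104).

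**Figure D2:**
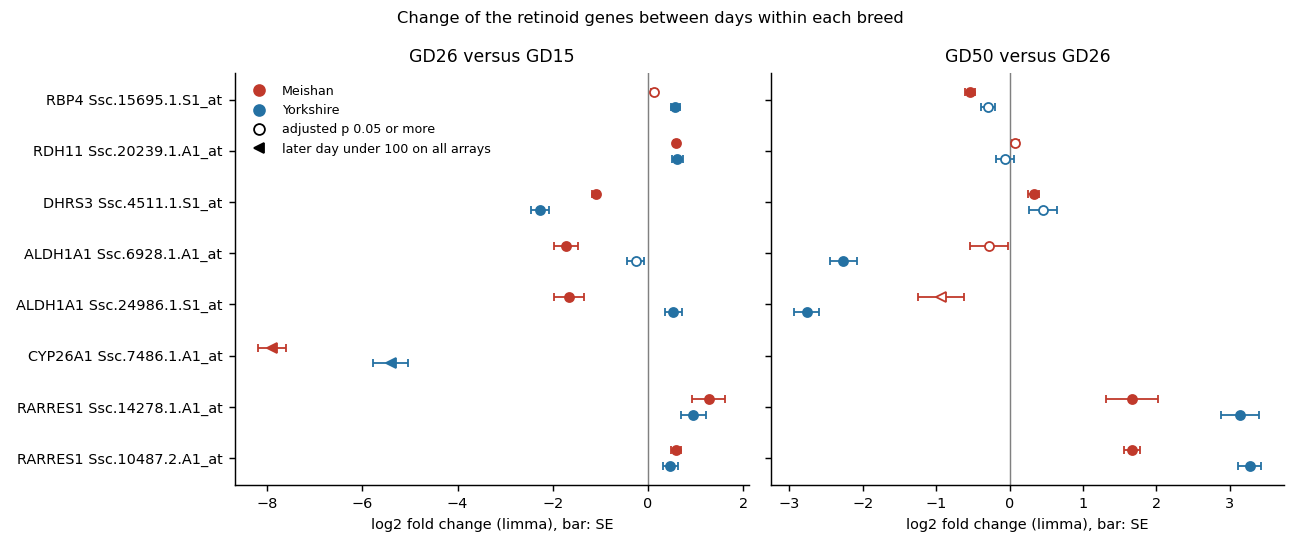
Log2 fold change (x axis) from GD15 to GD26 (left) and from GD26 to GD50 (right) of the 8 tested probe sets in Meishan (red) and Yorkshire (blue), with SE bars from limma; open symbols did not pass the test, triangles mark a later day under an intensity of 100 on all arrays, and CYP26A1 is left out on the right because both days were under 100. DHRS3 and CYP26A1 fell to GD26 in both breeds, RARRES1 rose at both steps, and ALDH1A1 fell on the left in Meishan and on the right in Yorkshire.

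Counted together, some retinoid probe sets went up and others down. CYP26A1 is among those that fell from GD15, although it passed the filter only through GD15, where it was high. In Meishan, 3 of the 8 rose from GD15 to GD26 and 4 fell, where 50.0% of all tested probe sets were called, 23.3% rising and 26.7% falling. In Yorkshire 5 rose and 2 fell over the same days, against 64.1% of all called, 20.6% rising and 43.6% falling. From GD26 to GD50, 3 rose and 1 fell in Meishan (17.5% of all called, 7.83% rising and 9.70% falling), and 2 rose and 2 fell in Yorkshire (13.8%, 5.92% and 7.85%). From GD15 to GD50 all 8 were called in both breeds. Of these, 3 rose and 5 fell in Meishan (51.1% of all called, 22.6% rising and 28.5% falling), and 4 rose and 4 fell in Yorkshire (65.9%, 19.6% and 46.4%). These counts and shares, and those for the lists below, are as deposited. In Yorkshire the shares moved after median centring, quantile normalization and cyclic loess. From GD15 to GD26, 29.1%, 26.4% and 30.8% of all tested probe sets then rose, and 30.2%, 34.3% and 27.5% fell. From GD15 to GD50, 29.5%, 26.6% and 30.5% rose, and 30.7%, 34.5% and 27.9% fell. Over that span ALDH1A1 changed by −2.01 (SE 0.26, adjusted p = 0.00107) on its brighter probe set in Meishan and by −2.52 (SE 0.18, adjusted p = 5.85e-05) in Yorkshire, and DHRS3 by −0.77 (SE 0.07, adjusted p = 0.000326) and −1.81 (SE 0.19, adjusted p = 0.000272). RARRES1 rose on its brighter probe set by 2.94 (SE 0.35, adjusted p = 0.000749) and 4.09 (SE 0.26, adjusted p = 3.70e-05), and RDH11 by 0.67 (SE 0.06, adjusted p = 0.000190) and 0.55 (SE 0.12, adjusted p = 0.00611). RBP4 was the gene whose direction from GD15 to GD50 differed, −0.42 in Meishan (SE 0.06, adjusted p = 0.00213) and 0.27 in Yorkshire (SE 0.10, adjusted p = 0.0414). The Yorkshire value did not pass the test after quantile normalization (0.04, adjusted p = 0.699), nor without any 1 of 7 of the 9 Yorkshire arrays, all but replicate 3 of GD15 and replicate 1 of GD26 (adjusted p of 0.0513 to 0.105). The size of the earlier change differed by breed for 5 of the 8 probe sets, 4 upward and 1 downward in Yorkshire against Meishan (36.6% of all called, 8.78% upward and 27.8% downward). After median centring, quantile normalization and cyclic loess, 14.1%, 12.1% and 15.1% of all were upward and 13.1%, 16.6% and 11.7% downward. CYP26A1, 1 of the 4 upward, was under 100 at GD26 in both breeds, so its value restates the gap between the breeds at GD15. The later change differed for 3, with 1 upward and 2 downward (4.74% of all called, 2.36% and 2.38%).

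The breeds were next compared on the same day. At GD15, where the arrays of the breeds were alike in brightness, 3 of 8 retinoid probe sets were higher in Yorkshire and 2 were lower, and 10.5% of all tested probe sets were called, 5.25% higher and 5.24% lower. ALDH1A1 was higher in Yorkshire by 1.49 log2 (SE 0.23, adjusted p = 0.000918) and 1.52 (SE 0.26, adjusted p = 0.00188), and DHRS3 by 0.64 (SE 0.15, adjusted p = 0.0131). The DHRS3 call was lost after median centring (adjusted p = 0.0576) and without Yorkshire replicate 2 (adjusted p = 0.0607), where 3 of 8 probe sets were called. CYP26A1 was lower, as given above, and RARRES1 was lower on Ssc.10487.2.A1_at (−0.50, SE 0.14, adjusted p = 0.0349) with −0.84 on the brighter probe set (SE 0.31, adjusted p = 0.116), and the breeds did not overlap on either. The former was lost without Meishan replicate 1 or 2 or Yorkshire replicate 2 or 3 (adjusted p of 0.0761 to 0.132), and the latter was called without Meishan replicate 2 (−1.13, adjusted p = 0.0482). RBP4 differed by 0.12 (SE 0.08, adjusted p = 0.461). Yorkshire endometrium at GD15 thus had more RNA of ALDH1A1, an enzyme that makes retinoic acid, and less of CYP26A1, an enzyme that removes it. Both differences were larger than the spread between pools. Other enzymes of these 2 steps were not analysed, and retinoic acid itself was not measured.

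At GD26, 3 probe sets were higher in Yorkshire and 3 were lower (53.5% of all called, 10.9% higher and 42.6% lower), and at GD50, 4 were higher and 1 was lower (57.2%, 11.1% and 46.1%). ALDH1A1 had its widest gap at GD26, 2.95 log2 (SE 0.23, adjusted p = 8.84e-07) and 3.71 (SE 0.26, adjusted p = 3.39e-07). At GD50 it was 0.97 (SE 0.23, adjusted p = 0.00310) on the brighter probe set, and the dimmer was at least 3.08-fold higher (adjusted p = 7.93e-05). After rescaling, the ALDH1A1 difference on the brighter probe set was 2.93 to 3.30 at GD26 and 1.10 to 1.38 at GD50, that on the dimmer was 3.89 to 4.14 and 2.24 to 2.36, and each was called. RBP4 was higher in Yorkshire by 0.57 at GD26 (SE 0.08, adjusted p = 0.000141) and by 0.82 at GD50 (SE 0.08, adjusted p = 9.79e-06). After rescaling, the RBP4 difference was 0.31 to 0.93 at GD26 and 0.55 to 1.23 at GD50 and was called each time. DHRS3 was lower in Yorkshire, with −0.53 at GD26 (adjusted p = 0.00924) and −0.40 at GD50 (adjusted p = 0.0335) as deposited, and neither was called after any rescaling (−0.32 to −0.18 and −0.18 to 0.01). The latter was also lost without replicate 1 or 3 of GD50 in either breed (adjusted p of 0.0680 to 0.128). RARRES1 was lower in Yorkshire at GD26, with −1.16 (SE 0.31, adjusted p = 0.00752) and −0.61 (SE 0.14, adjusted p = 0.00254), and the second of these was not called after median centring (−0.26, adjusted p = 0.150) or cyclic loess (−0.34, adjusted p = 0.0567), while the first was −1.02 to −0.81 after rescaling and was called each time. At GD50 it was higher in Yorkshire by 0.99 on Ssc.10487.2.A1_at (SE 0.14, adjusted p = 9.14e-05; 1.03 to 1.40 after rescaling, called each time), and the difference on the brighter probe set was 0.31 (SE 0.31, adjusted p = 0.415), called after median centring alone (0.72, adjusted p = 0.0489).

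**Figure D3:**
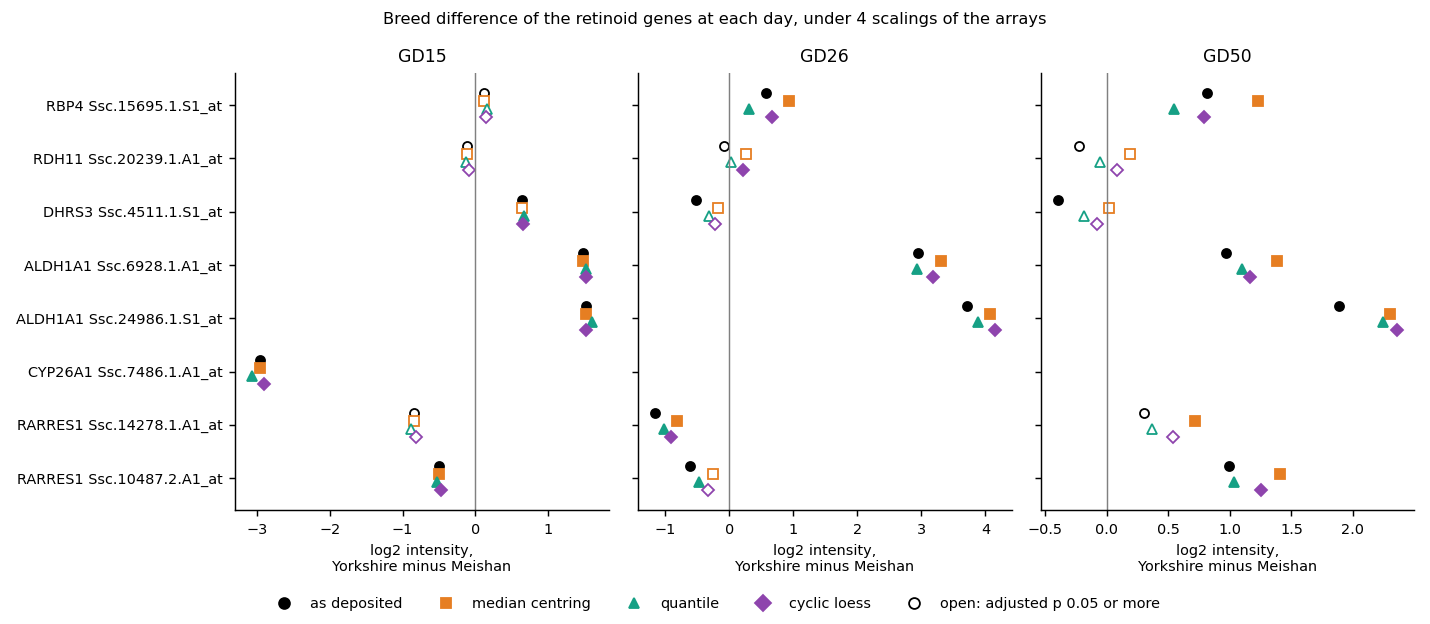
Yorkshire minus Meishan log2 intensity (x axis) of the tested retinoid probe sets at GD15, GD26 and GD50, as deposited (black) and after 3 rescalings of the arrays; filled symbols passed the test and differences with both breeds under an intensity of 100 are left out. ALDH1A1 stayed to the right of 0 on every day under every scaling, RBP4 did at GD26 and GD50, and DHRS3 at GD26 and GD50 was open under the 3 rescalings.

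Other genes of the retinoid pathway were taken from lists by role, with the brightest probe set for each gene. Of the proteins that take up or bind retinoids, 8 had a probe set and 4 passed the filter, and all 4 rose from GD15 to GD26 in both breeds, against 23.3% of all tested probe sets in Meishan and 20.6% in Yorkshire. The median change of the 4 was 1.69 log2 in Meishan and 1.82 in Yorkshire, against −0.06 and −0.47 over all tested probe sets. RBP7, a retinol-binding protein of the cytoplasm, had the largest change of the 4. Its intensities were 4.98 to 23.7 in Meishan and 4.98 to 6.56 in Yorkshire at GD15, 482 to 885 and 3208 to 3830 at GD26, and 10643 to 10869 and 11113 to 16191 at GD50. Every later array of RBP7 stood above every array of the day before in both breeds. RBP7 passed the filter only through GD26 and GD50, where it was high. Its rise to GD26, and its place in the count and the median above, are therefore a description. It rose to GD26 at least 6.70-fold in Meishan (adjusted p = 0.000347) and at least 34.3-fold in Yorkshire (adjusted p = 4.57e-07), and then by 4.01 log2 (SE 0.55, adjusted p = 0.00606) and 1.98 (SE 0.17, adjusted p = 0.00123). At GD26 it was higher in Yorkshire by 2.35 (SE 0.41, adjusted p = 0.000508), and by 2.46 to 2.75 after rescaling, which was called each time. LRP2, a receptor that takes up RBP4 among other ligands, rose to GD26 by 1.96 (SE 0.27) and 2.23 (SE 0.36), and FABP5, which carries fatty acids and retinoic acid, by 1.41 (SE 0.23) and 1.40 (SE 0.31), with adjusted p-values of 0.00142 and 0.00185 for LRP2 and of 0.00321 and 0.00719 for FABP5. FABP5 rose again to GD50 in Meishan, by 0.94 (SE 0.23, adjusted p = 0.0379). SCARB1, a lipoprotein and carotenoid receptor, rose by 0.70 and 0.65 (adjusted p = 0.0204 and 0.0434) and then fell, with −0.96 (adjusted p = 0.0177) and −1.14 (adjusted p = 0.0236). TTR, RBP2, RBP5 and CRABP2 were not tested, and TTR exceeded 100 on 2 arrays only.

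Of the genes of ester storage and release, 3 of 6 passed the filter. LPL and DGAT1 were called higher at GD26 than at GD15 in each breed. Of all tested probe sets, 23.3% rose in Meishan and 20.6% in Yorkshire. Both genes were under 100 on all arrays of GD15 and passed the filter only through later days, so these calls are a description. In Yorkshire DGAT1 was under 100 at GD26 too, so no order of these days can be read for it. LPL, a lipase that also acts on retinyl esters, rose at least 7.11-fold in Meishan (adjusted p = 0.000989) and at least 4.55-fold in Yorkshire (adjusted p = 0.00137), and its change to GD50 was −1.93 log2 in Meishan (SE 0.48, adjusted p = 0.0388) and a fall of at least 4.55-fold in Yorkshire (adjusted p = 0.0141). DGAT1, an acyltransferase, rose at least 1.16-fold to GD26 in Meishan (adjusted p = 0.0430) and was called in Yorkshire with both days under 100 (adjusted p = 0.00341), and the carboxylesterase CES1 fell at least 1.20-fold to GD50 in Yorkshire (adjusted p = 0.0144). CES1 passed the filter only through arrays of GD15 and of Yorkshire at GD26, so its fall is a description. Of the other enzymes of retinol and retinal, 4 of 4 passed. RETSAT, a retinol saturase, rose to GD26 in Meishan by 0.72 (SE 0.18, adjusted p = 0.0145), and the Yorkshire change was 0.35 (SE 0.36, adjusted p = 0.420). DHRS4, a carbonyl reductase that acts on retinal, was at most 31.3 on the Meishan arrays and on the Yorkshire arrays of GD15, and 117 to 173 on the 6 later Yorkshire arrays. DHRS4 thus passed the filter only through the 6 arrays on which it was high, and its rise of at least 1.46-fold in Yorkshire from GD15 to GD26 is given as a description. ADH5 and RDH14 fell in Yorkshire, with −0.49 (adjusted p = 0.000773) and −0.77 (adjusted p = 0.00445), beside a median of −0.47 over all tested probe sets. RDH16, a retinol dehydrogenase named by the study's lists and chosen here after its values were seen, rose to GD26 at least 11.7-fold in Meishan (adjusted p = 9.02e-05) and at least 17.6-fold in Yorkshire (adjusted p = 4.72e-06). It was under 100 on all arrays of GD15 and passed the filter only through the later days, so these rises are a description.

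No further gene of retinoic acid synthesis or breakdown was analysed here, ALDH1A2, ALDH1A3, CYP26B1 and CYP26C1 included. Of 9 receptors and cofactors, 3 passed the filter, and of the receptors themselves, RARA, RARB, RXRA and RXRG were under 100 on every array and RXRB exceeded it on 2 arrays of GD15, with 114 at most. The corepressor NCOR1 rose to GD26 by 1.11 log2 in Meishan (SE 0.18, adjusted p = 0.00301) and by 1.96 in Yorkshire (SE 0.28, adjusted p = 0.00116). The coactivator NCOA1 fell, 2.95-fold or more in Meishan (adjusted p = 2.06e-05) and with −1.54 log2 in Yorkshire (SE 0.40, adjusted p = 0.0138). In Meishan both then went the other way by GD50, NCOR1 with −0.69 (SE 0.18, adjusted p = 0.0455) and NCOA1 with a rise of at least 1.15-fold (adjusted p = 0.00533). Of 6 other genes that retinoic acid is known to induce, 2 rose and 2 fell to GD26 in Meishan, where 23.3% of all tested probe sets rose and 26.7% fell, and 1 rose and 3 fell in Yorkshire, where 20.6% rose and 43.6% fell. The homeobox gene HOXA3 fell by a factor of 3.16 or more in Meishan (adjusted p = 0.00692) and of 2.99 or more in Yorkshire (adjusted p = 0.000319), and the homeobox gene MEIS1 changed by −0.76 log2 in Meishan (SE 0.12, adjusted p = 0.00274). In Yorkshire MEIS1 went from 429 to 490 at GD15 down to 70.9 to 156 at GD26 (adjusted p = 0.00163). The transcriptional repressor BHLHE40 rose 1.23-fold or more in Meishan (adjusted p = 0.00855) and 1.82-fold or more in Yorkshire (adjusted p = 0.00465). HOXA3 passed the filter through its arrays of GD15 and 1 of Meishan at GD50, and BHLHE40 only through GD26 and GD50. The calls of HOXA3 and BHLHE40, and their places in the counts, are therefore a description. RAI14, named for its induction by retinoic acid, rose in Meishan by 1.13 (SE 0.23, adjusted p = 0.00687), and MEIS2 fell at least 1.27-fold in Yorkshire (adjusted p = 0.00903). None of the 6 was called from GD26 to GD50 in either breed, when 17.5% of all tested probe sets were called in Meishan and 13.8% in Yorkshire.

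**Figure D4:**
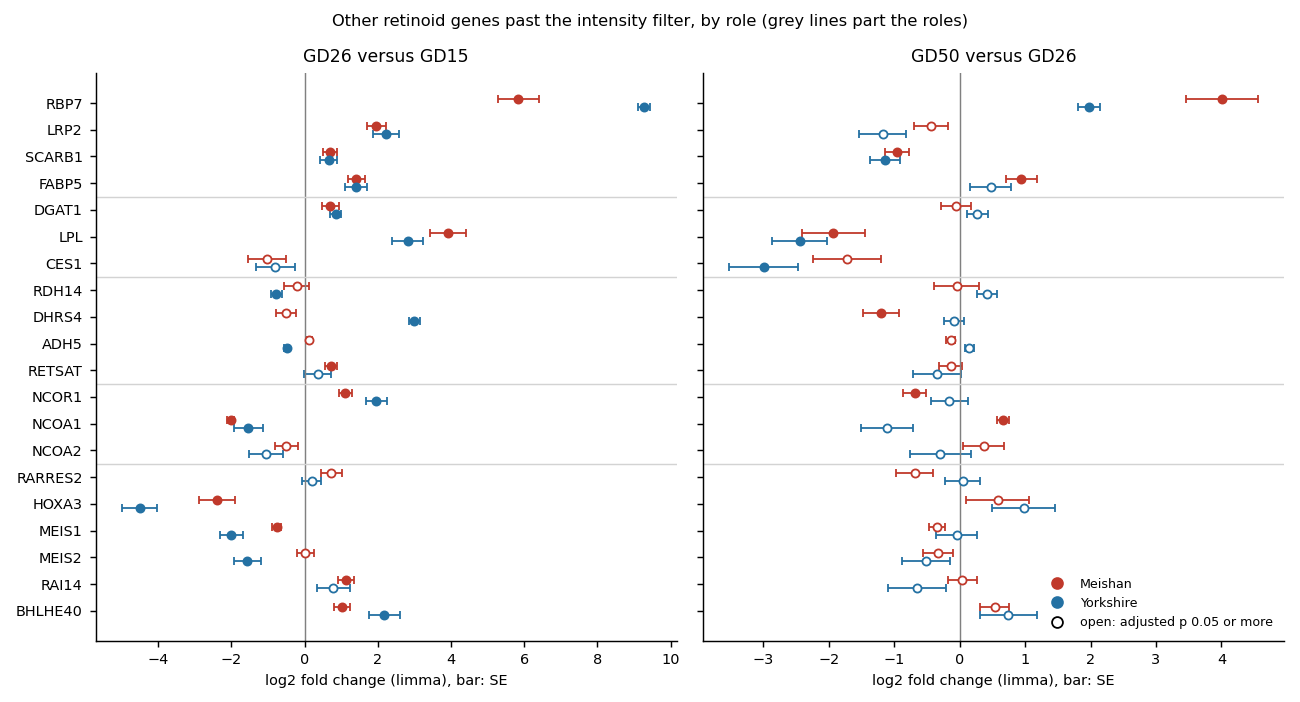
Log2 fold change (x axis) of 20 other retinoid genes past the filter from GD15 to GD26 (left) and from GD26 to GD50 (right) in Meishan (red) and Yorkshire (blue), with SE bars from limma; open symbols did not pass the test, grey lines part the roles, and values of genes with a group under an intensity of 100 (RBP7, LPL, DHRS4 and HOXA3 among them) are fitted values and no bounds. RBP7, LRP2, SCARB1 and FABP5 lie to the right of 0 on the left in both breeds.

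Markers of other tissue moved with these steps. Of 9 measured trophoblast and placental markers, 8 were under 100 on all arrays of GD15, where their summed intensity was 309 to 444, and the sum was 40760 to 89760 at GD26 and GD50, when the placenta is attached. From GD15 to GD26 the rises of RDH11, RBP7 and RARRES1 share the direction of this list. In Yorkshire its sum was 74370 to 89760 at GD26 and 46740 to 66170 at GD50, while RBP7 and RARRES1 rose further. In Meishan the sum was 40760 to 75110 at GD26 and 71140 to 88660 at GD50. The part of this list in the rises was not tested. The embryonic globin gene HBE1 read 14386 to 17116 at GD26 in Yorkshire and 99.7 to 6376 in Meishan, and at most 8.39 on the other days. On Meishan replicate 1 of GD26, the genes AFP and AHSG, whose proteins yolk sac and fetal liver make, read 2748 and 3894, and TTR, the plasma partner of RBP4, read 340. Without that array ALDH1A1 still fell to GD26 in Meishan, with −1.43 (adjusted p = 0.00160) and −1.32 (adjusted p = 0.00471), and the RBP4 change was 0.16 (adjusted p = 0.125). Of 10 measured endometrial markers, PGR and the platform's ESR1 were under 100 on all arrays, and 8 passed the filter. From GD15 to GD26, SPP1 and ACP5 rose and KRT8, KRT18 and SAL1 fell in both breeds, and FOXA2, MUC1 and VIM fell in Yorkshire. Of all tested probe sets, 23.3% rose and 26.7% fell in Meishan, and 20.6% rose and 43.6% fell in Yorkshire. SAL1 passed the filter only through GD15, where it was high, so its fall is a description. The epithelial keratin KRT8 changed by −0.93 log2 in each breed (adjusted p = 0.000549 and 0.000165), and KRT18 by −1.27 and −1.11 (adjusted p = 0.00158 and 0.000717). Of 4 smooth muscle markers past the filter, 3 rose in Meishan and 4 in Yorkshire over the same days, against 23.3% and 20.6% of all tested probe sets. ACTA2 rose by 1.10 and 1.01 (adjusted p = 0.000703 and 0.000180). CNN1, called in Yorkshire alone, was under 100 on all arrays of GD15 and passed the filter only through later days, so its call is a description. Of 4 measured leukocyte markers 1 passed, the macrophage receptor CD163, which rose by 0.85 in Meishan (adjusted p = 0.0254) and at least 1.20-fold in Yorkshire (adjusted p = 0.00117), while PTPRC was under 100 on all arrays. From GD15 to GD26 the falls of DHRS3, CYP26A1 and, in Meishan, ALDH1A1 share the direction of the keratins. SPP1 and ACP5, of the same endometrial list, went the other way. The rises over these days share the direction of the muscle markers and of SPP1 and ACP5. The part of these lists in the falls and rises was not tested.

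By the correlation of log2 values over the 18 arrays with each of 4340 other genes, the most similar pattern to CYP26A1 was that of LOC100517803 (r = 0.982), followed by CCL28, VNN1 and CMTM7. For ALDH1A1 these were FMO1 (r = 0.886), ECHS1, MSRB2 and XPO7, and for RBP4 they were CD74 (r = 0.900), UBAP2L, DHRS4 and RNH1. RDH11 was most like SLC27A6 (r = 0.972), ATP6V0A4, HMGCS1 and EDDM3B, RARRES1 like HIGD1A (r = 0.960), GK, CHI3L1 and MCFD2, and DHRS3 like CTDSP2 (r = 0.974), CFD, CNDP2 and ST6GAL1. The 18 arrays share their groups and their brightness, so these values describe the pattern over the 6 groups and carry no test.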

How the data were processed

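The authors read the intensity files of the Affymetrix porcine array with Bioconductor's affy package and deposited log2 intensities after GCRMA (versions are not given in the sources used here, and the submitters' notes also name RMA). The deposited log2 values were used as they are. Of 24123 probe sets, 10099 have 1 symbol in the platform annotation, which can be old, 198 have several and 13826 have none; DHRS3, TRIM16, ESR1 and RDH16 were named from the study's tables. limma 3.58.1 (R 4.3.3) was fitted to all probe sets, over the 9 arrays of a breed for changes between days and over all 18 arrays for breed differences. Benjamini-Hochberg adjustment ran over the 9320 probe sets other than controls with an intensity above 100 in at least 6 arrays, and 0.05 was the threshold. Where all arrays of the dimmer group were under 100, a fold is a lower bound with 100 in its place. The small number of arrays limits the precision. The script was tested on simulated data. By rule, the member genes are reported whether called or not, with their values at the steps and between the breeds and examples and counts for GD50 versus GD15, and of the other lists up to 4 called genes with the largest change per step; a further gene that the rule names is not reported here. The members and lists were chosen with earlier results of these data known. Alternatives covered the filter, the scaling, a floor, the variance trend, the fit, stricter calls, the replicate block and leaving out each array.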

Additional observations from a re-analysis of the deposited data

Results flagged for a closer look

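The change between days differed between the breeds, by the interaction test of limma over all 18 arrays, for 8 combinations of probe set and step. From GD15 to GD26 the Yorkshire minus Meishan difference in the log2 change was 1.47 and 2.19 for ALDH1A1 on Ssc.6928.1.A1_at and Ssc.24986.1.S1_at, 2.48 for CYP26A1, −1.17 for DHRS3 and 0.45 for RBP4. From GD26 to GD50 it was −1.98 and −1.83 for the same ALDH1A1 probe sets and 1.60 for RARRES1 on Ssc.10487.2.A1_at. The CYP26A1 value is a fitted one, with all arrays of GD26 under an intensity of 100. All 8 include the Yorkshire arrays of GD26, and the 3 later ones also those of GD50, and the hybridization controls of both groups stood above those of the other groups. Of the 8, all were called after median centring and cyclic loess, and 7 after quantile normalization, which ended the RBP4 call. With Yorkshire GD26 from replicate 1 alone, 5 were called and all 8 kept their sign.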

How the results depend on the processing

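For the 10 probe sets over all settings, 2488 values were unchanged, 152 lost the call, 16 gained it, 20 changed sign and 9 moved. A tested value was unchanged if it kept its direction and its side of the threshold. An untested value was unchanged if it shifted by no more than the SE of its log2 fold change, and moved otherwise. A stricter call, Bonferroni adjustment over all probe sets with a fold change of at least 2, gave 51 of the losses. The study's methods name a fold change of 2 with both Bonferroni and false discovery rate adjustment. A figure legend of the study defines its calls by a false discovery rate under 0.05 with that fold change, so the Bonferroni call is stricter than the study's own. Under the Bonferroni call the called probe sets were 1 of 7 for Meishan GD26 versus GD15, 0 of 4 for GD50 versus GD26 and 2 of 8 for GD50 versus GD15, and in Yorkshire 0 of 7, 2 of 4 and 2 of 8. For Yorkshire versus Meishan they were 1 of 5 at GD15, 2 of 6 at GD26 and 0 of 5 at GD50, and for the breed difference in the earlier and later change 0 of 5 and 1 of 3. The Benjamini-Hochberg adjusted p with a fold change of at least 2, added after seeing the data, gave 24 losses, with 5, 2 and 5 called in Meishan and 2, 4 and 6 in Yorkshire in the same order, 3, 3 and 1 between the breeds, and 4 and 3 for the difference in the changes. Without single arrays, the counts for these 11 comparisons, in the same order, ran from 6 to 7, 2 to 4, 8 to 8, 5 to 7, 4 to 4, 7 to 8, 3 to 5, 6 to 6, 4 to 6, 5 to 5 and 3 to 4. The count of 2 for Meishan GD50 versus GD26 came without replicate 3 of GD26 or replicate 1 or 3 of GD50, and that of 3 without Yorkshire GD15 replicate 2.

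Yorkshire GD26 was also taken from array 1 alone, a choice made after seeing the data, with the lone array assumed to vary like the other groups. The calls were then 4 for Yorkshire GD26 versus GD15 and 3 for the breed difference in that change. The RBP4 rise (0.46, adjusted p = 0.0549), the RARRES1 rise on Ssc.10487.2.A1_at (0.49, adjusted p = 0.183) and the lower RARRES1 of Yorkshire at GD26 (−0.51 and −0.58, adjusted p of 0.344 and 0.0575) were not called. The cause was not tested.

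Signs turned mostly in values that were not called. Median centring gave 0.13 for ALDH1A1 (Ssc.6928.1.A1_at) in Yorkshire from GD15 to GD26 and 0.0051 for RDH11 there from GD26 to GD50. Without single arrays, the latter ran from −0.151 to 0.0204 and was above 0 without Yorkshire GD26 replicate 1 or GD50 replicate 2. The breed difference of RDH11 at GD26 was 0.0240 (quantile), 0.262 (median centring), 0.211 (cyclic loess) and 0.0375 (array 1 alone), and at GD50 0.186 (median centring) and 0.0797 (cyclic loess). DHRS3 at GD50 was 0.0147 after median centring. The breed difference in the earlier RARRES1 change was 0.0315 (median centring) and 0.329 (array 1 alone) on Ssc.14278.1.A1_at, and 0.0513 (quantile), 0.234 (median centring) and 0.123 (cyclic loess) on Ssc.10487.2.A1_at. For RDH11 it ran from −0.0661 to 0.0891 without single arrays and was under 0 without Meishan GD26 replicate 3 or replicate 1 of Yorkshire at GD15 or GD26. The later difference of DHRS3 ran from −0.0616 to 0.251 and was under 0 without Yorkshire GD26 replicate 1.

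The shares of lower values among all called probe sets moved with the scaling. For Yorkshire versus Meishan, 79.6% of those called at GD26 and 80.6% at GD50 were lower as deposited, against 53.6% and 51.5% after median centring. Of 18 pairs of same-numbered arrays of a breed, 7 had deviations correlated over 0.1 (median r = 0.05, from −0.14 to 0.33), against 8 of 36 pairs of different numbers, so the numbers were not taken as a pairing, for which every pair would have to pass. A replicate block ended 2 calls, the ALDH1A1 rise on Ssc.24986.1.S1_at in Yorkshire to GD26 (adjusted p = 0.0627) and the DHRS3 rise in Meishan to GD50 (adjusted p = 0.0524), and no other call. Values under 100 carry no order here.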
